A study of Mus musculus with 4 samples.

Results

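Replication-dependent histone genes encode the proteins around which DNA is packed, and they are described here in the embryonic frontonasal prominence (FNP), from which nose and snout develop. The members are all genes of the deposited expression table whose symbol starts with Hist1h, Hist2h, Hist3h or Hist4h. They were 67 of 33708 table rows, with 6 genes for the linker histone H1, 18 for H2A, 18 for H2B, 12 for H3 and 13 for H4. All 67 matched a protein-coding gene of GENCODE M21 on the mouse genome GRCm38. The FNPs came from FVB/NJ embryos at E10.5 (29 somites), 2 of them Smchd1+/+ (WT) and 2 homozygous for MommeD43 (Smchd1MommeD43/MommeD43, MD43), a chemically induced missense allele of the chromatin silencing gene Smchd1 that is present in every cell. By the labels the WT embryos were 1 female and 1 male and the MD43 embryos were 2 males, but the records of the study differ on the sex of the second WT embryo, so that sex and genotype may not be separable. The table gives 1 merged log2 RPKM value (reads per kilobase of transcript, scaled to library size, log2) for each genotype, so no difference between genotypes was tested. Each value is the authors' mean, and it carries no SD.

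A replication-dependent histone mRNA is made mainly in S phase, when new DNA must be packed. H2A, H2B, H3 and H4 form the core of the nucleosome, and H1 binds the DNA that enters and leaves it. Unlike other mRNAs, most of these messages end in a short stem-loop in place of a poly(A) tail. The stem-loop binding protein SLBP and the U7 small nuclear RNP, with LSM10 and LSM11, direct the cut just after it. Some histone genes also have a poly(A) signal further downstream, and messages that end there carry a tail. For the FNP libraries, RNA with a poly(A) tail was selected from 100 ng of total RNA. The values below are therefore those of the histone RNA that remained after this selection, and fewer cells that make a message cannot be told apart from less message per cell.

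The sequence that marks this gene family is shown first, since it decides how a message ends. The 16-base stem-loop was searched after the stop codon of each GENCODE M21 transcript as a 6-base stem that starts with GG and ends with T, a 4-base loop that starts with T and the exact reverse complement of the stem. Of the 67 genes, 46 had it in a transcript model, and the other 21 models ended earlier or held no complete copy. The most frequent form was shared by 26 genes, among them Hist1h1e and Hist3h2ba. The 12 H4 genes with a stem-loop carried other stems. The sequences below are 30 bases of each message with the stem-loop in capitals.
Hist3h2ba: cccaaaGGCTCTTTTCAGAGCCaccttcca
Hist1h1e: cccaaaGGCTCTTTTCAGAGCCacccacaa
Hist1h2bk: accaaaGGCTCTTTTAAGAGCCactaaacc
Hist1h3g: tttaaaGGCTCTTCTTAGAGCCacccatct
Hist1h4d: accaaaGGCCCTTTTCAGGGCCactacctt
Hist1h4b: acaaaaGGTCCTTTTCAGGACCactcactg
Hist1h4i: cttaaaGGCCCTTTTTAGGGCCaccacaaa
Hist4h4: cacaaaGGCCCTTTTCAGGGCCcacaaagc
The full 16-base form of Hist1h4d and Hist4h4 was found in 7 H4 genes, and that of Hist1h4b in 2. Hist1h4i has the same stem as Hist1h4d with another loop. All 13 H4 genes encoded the same protein of 103 residues, counting the first methionine, whereas the H1 proteins all differed and ran from 209 to 223 residues. Such identity matters for the values below, because a 75-base read can match several genes. In 31 members at least 50% of all 75-base stretches of the transcripts were also found in another gene, which leaves their values uncertain.

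Histone mRNA was present at a low level. For each genotype, the read counts of both libraries, multiplied, were recovered from the table, and the square root of this product is called reads below. A library without a read enters the product as 0.9. A genotype was taken as absent where neither library had a read. Of the 67 members, 9 were absent in both genotypes, 6 were absent in WT only, none was absent in MD43 only, and 52 had reads in both. The 9 comprised 1 H1, 5 H2A and 3 H2B genes, among them Hist1h1t, Hist1h2aa and Hist1h2ba, which are known as histones of the testis. The depth behind the values was 1.39 times as large in MD43 (22328791 reads) as in WT (16055882 reads), and a message is thus more easily missed in WT. Summed over all members, the level was 54.9 RPKM in MD43 and 48.5 RPKM in WT, of which H2B supplied 45.9% and 52.8%. A single gene, Hist3h2ba, reached 12.04 RPKM in MD43 and 14.0 RPKM in WT. For comparison, the replication-independent histone variants, whose messages mostly have a poly(A) tail, summed to 1417 RPKM in MD43 and 1415 RPKM in WT.

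**Figure D1:**
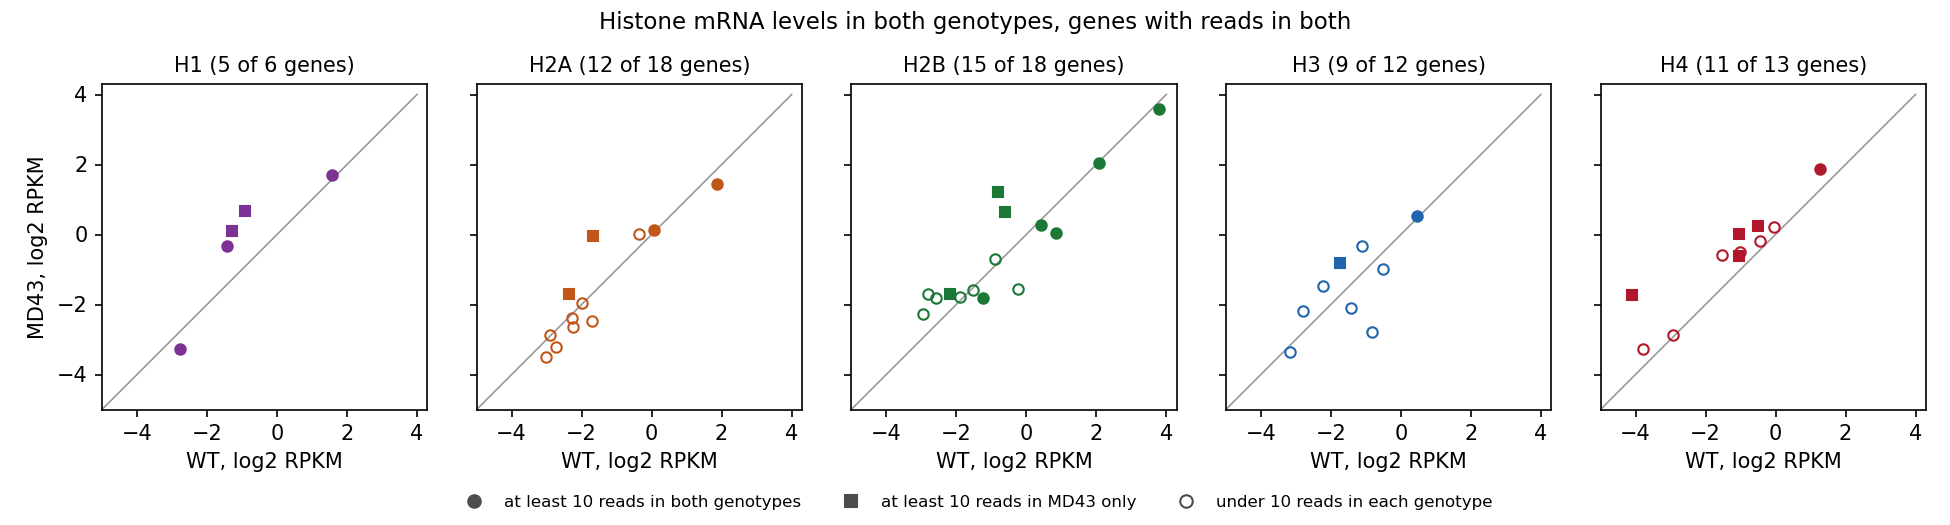
Levels of the 52 histone genes with reads in both genotypes, in log2 RPKM, with WT on the x axis and MD43 on the y axis and 1 panel for each histone type. Points above the grey line of equality were higher in MD43, as all 11 H4 genes were, while H2A and H2B genes lay on both sides.

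Among the 52 members with reads in both genotypes, 34 were higher in MD43 and 18 were lower, with a median difference of 0.21 on the log2 scale. Over all 18598 genes with reads in both, 49.2% were higher in MD43 and the median was -0.01. The types differed in their counts. All 11 H4 genes were higher in MD43, with a median difference of 0.52 and a range of 0.05 to 2.38. Of the H1 genes, 4 of 5 were higher (median 1.10). The H2A genes divided 6 to 6 (median -0.04), the H2B genes 8 to 7 (median 0.10) and the H3 genes 5 to 4 (median 0.09). The summed level was 10.7 RPKM in MD43 and 6.88 RPKM in WT for H4, and 6.81 RPKM and 4.41 RPKM for H1. It was 7.48 and 7.39 RPKM for H2A, 25.2 and 25.6 RPKM for H2B, and 4.72 and 4.25 RPKM for H3. Genes of a type share sequence and regulation and are no replicates of the comparison.

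The counts of higher and lower members depended on the read filter. At least 10 reads in a genotype were found for 24 members, 12 of them in both genotypes, 12 in MD43 only and 0 in WT only. The 12 members that passed in both had 5 higher and 7 lower values (median -0.10). The 12 that passed in MD43 only were all higher, as that filter in the deeper genotype favours, with a median of 1.15. Of the 43 members under 10 reads in each genotype, 28 had reads in both, 17 higher and 11 lower (median 0.08). Among all genes, 612 passed in MD43 only, with a median of 0.68, and 188 passed in WT only, with a median of -1.29. Of the 24 members, 8 were at least 2-fold higher in MD43 and 0 were at least 2-fold lower. Of the 15355 genes that passed this minimum, 1.63% were at least 2-fold higher and 2.46% at least 2-fold lower, and 51.2% were higher by any amount. For the 4019 genes with 10 to 100 reads in the higher genotype, the shares past 2-fold were 5.72% higher and 7.71% lower. They were 0.385% higher for genes that passed in both genotypes, and 31.9% higher for genes that passed in MD43 only. Of the 8 members, 7 belonged to the latter, with Hist1h1e as the exception. The geometric mean of both genotypes is a filter that treats both alike. Where it reached 10 reads, 3 members stayed past 2-fold higher (Hist1h1b, Hist1h1e and Hist1h4d), beside 0.691% of 14910 genes. Most of those genes had more reads than these members, and no share was taken at a like depth for this filter. At a 1.5-fold minimum, 12 members were higher and 2 lower, beside 4.23% and 6.42% of all genes.

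**Figure D2:**
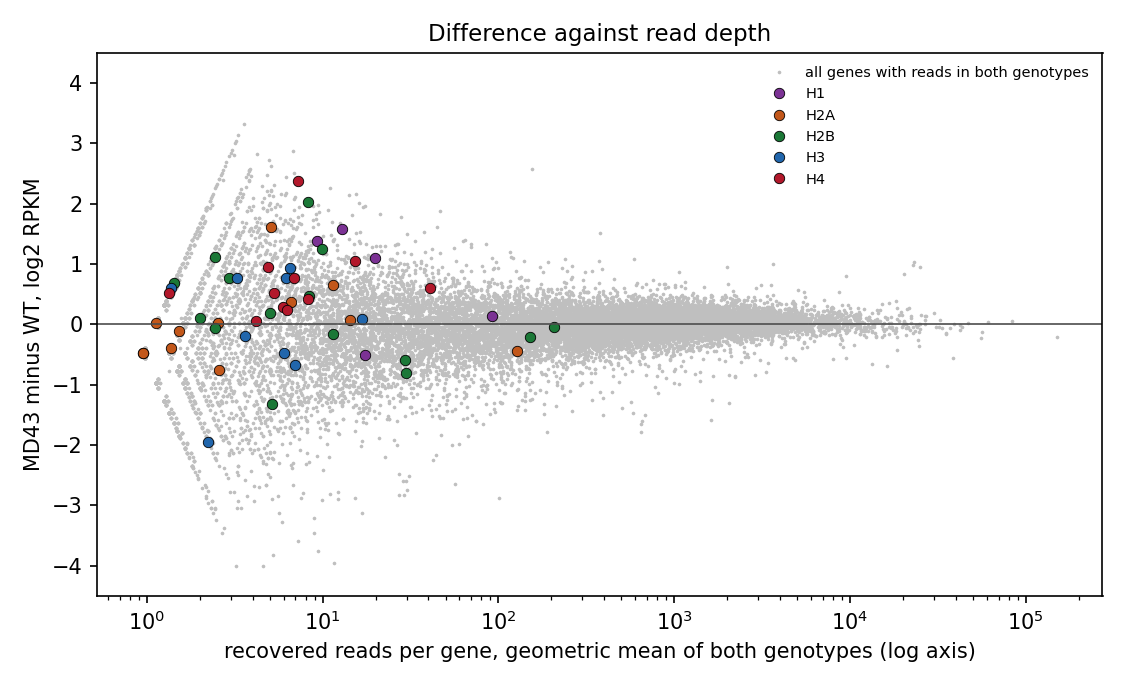
Difference between genotypes (MD43 minus WT, log2 RPKM) against recovered reads per gene (geometric mean of both genotypes, log axis) for 18598 genes in grey, with histone genes in colour by type. The 5 grey genes beyond 4.5 log2 units are not drawn, and the histone genes lie mostly below 100 reads, where the differences of all genes spread widely.

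The H1 genes encode the linker histones, and Hist1h1a, Hist1h1b and Hist1h1e gave 3 of the 8 differences past 2-fold. Hist1h1b (chr13:21779883-21780625, - strand) had 0.66 and -0.92 log2 RPKM in MD43 and WT, from read products of 688 and 40. Its difference was 1.58 with a counting SE of 0.45, or 2.98-fold. The counting SE comes from the recovered reads, leaves out variation between embryos and is a lower limit. Hist1h1a (chr13:23763666-23764406, + strand) had 0.09 and -1.28 log2 RPKM, from products of 312 and 24, a difference of 1.37 ± 0.52 (counting SE). Neither of these genes shared a 75-base stretch with another gene. Hist1h1e (chr13:23620629-23622558, - strand) was the only member past 2-fold with at least 10 reads in both genotypes, 34.3 in MD43 and 11.5 in WT. Its levels were -0.33 and -1.43 log2 RPKM, a difference of 1.10 ± 0.35. Its transcript model overlaps Hist1h2be and the gene model Gm11398 on the same strand, so reads of these may be counted in it. The most abundant H1 gene differed less. Hist1h1c, at chr13:23738808-23740367, had 1.71 log2 RPKM in MD43 and 1.56 in WT, a difference of 0.15 ± 0.15 that is as small as its counting error. Hist1h1d, with 17.2 and 17.6 reads on a transcript model of 7425 bases, differed by -0.50 ± 0.35.

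**Figure D3:**
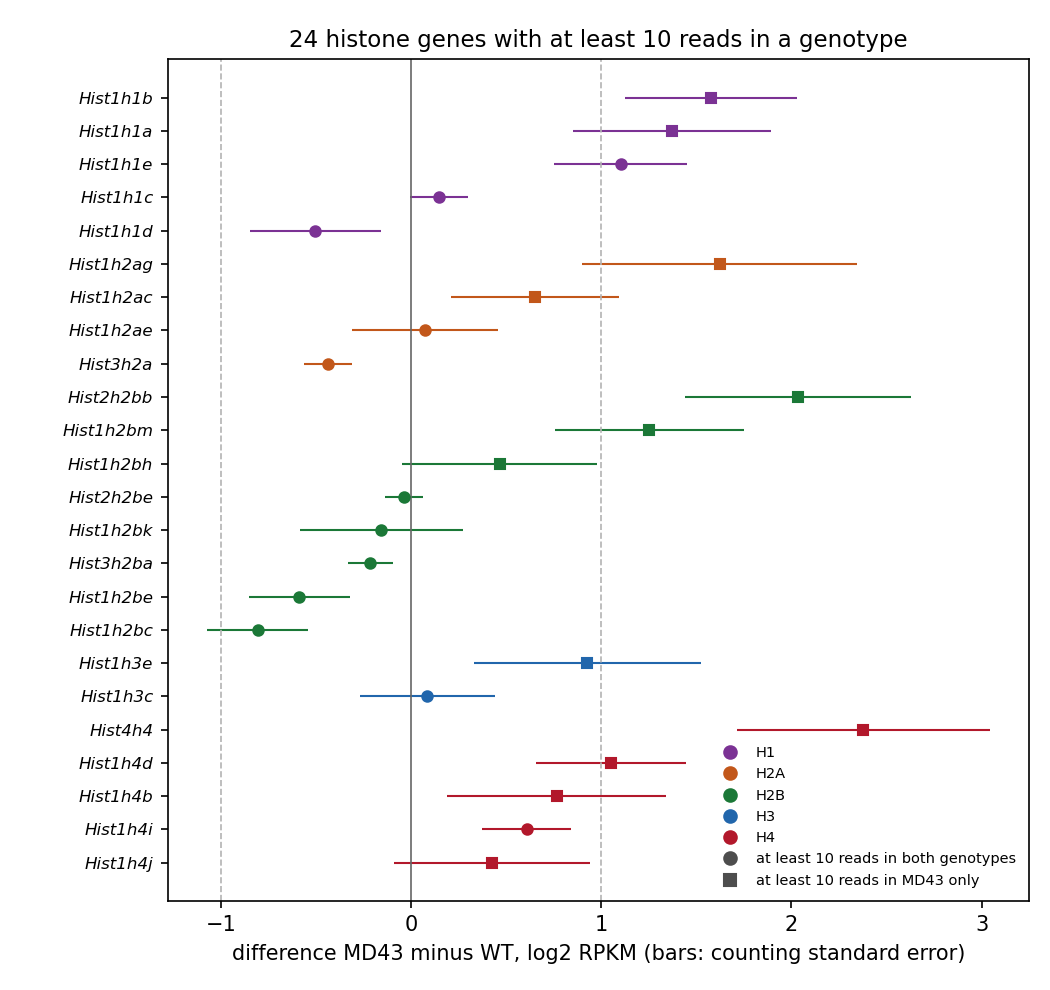
Difference between genotypes (MD43 minus WT, log2 RPKM) of the 24 histone genes that reached 10 reads in a genotype, coloured by type, with bars for the counting SE and dashed lines at 2-fold. Squares mark the 12 genes with at least 10 reads in MD43 only, all of them above 0, and circles the 12 that reached them in both genotypes, with values on both sides of 0.

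The H4 genes encode 1 protein from 13 loci, and they were the type in which every member with reads in both genotypes was higher in MD43. The most abundant was Hist1h4i (chr13:22040636-22041362, - strand), with 1.87 (59.2 reads) in MD43 and 1.26 (27.9 reads) in WT, in log2 RPKM. Its difference of 0.61 ± 0.23 is 1.53-fold, and the counting interval of 95% ran from 0.15 to 1.07. Hist1h4d (chr13:23581598-23582735, + strand) had 0.02 and -1.03 log2 RPKM from 25.8 and 8.94 reads, a difference of 1.05 ± 0.40. Hist1h4b, with 10.6 and 4.47 reads, differed by 0.77 ± 0.58, and Hist1h4j, with 11.2 and 6 reads, by 0.43 ± 0.52. For both of these the difference was under 1.5 counting SEs. Hist4h4, the only member on chromosome 6 (chr6:136801553-136804415, - strand), had the largest difference of all members, 2.38 ± 0.66. Its WT product of 7.2 means that 1 WT library had 8 reads and the other had none. The MD43 product of 377 is either 13 and 29 reads or 1 and 377 reads in the 2 libraries. With WT set to 3 reads, the difference of Hist4h4 was 2.22. Below 10 reads, Hist1h4a differed by 0.95, Hist1h4h by 0.52, Hist1h4c by 0.52, Hist1h4f by 0.28, Hist1h4k by 0.24 and Hist2h4 by 0.05, each within 1.5 counting SEs of 0. Hist1h4m and Hist1h4n each had 1 read in 1 MD43 library and no read in WT. No fold is given for them, as both genotypes were under 3 reads.

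H2A and H2B form the pair of subunits that flanks the central H3 and H4, and their genes are often arranged head to head. The most abundant members of both types were at nearly equal levels or lower in MD43. Hist3h2ba (chr11:58948920-58949533, + strand) had 3.59 log2 RPKM in MD43 and 3.80 in WT, a difference of -0.21 ± 0.12 from 165.1 and 137.6 reads. Hist2h2be (chr3:96221119-96223738, + strand) had 2.04 and 2.08 log2 RPKM, a difference of -0.04 ± 0.10. Its transcript model ends at a poly(A) signal and shares no 75-base stretch with another gene. Hist3h2a (chr11:58954685-58956830, + strand), the neighbour of Hist3h2ba, had 1.44 and 1.88 log2 RPKM, a difference of -0.44 ± 0.13. It overlaps Trim17 on the same strand, which differed by -0.42. Hist1h2bc (chr13:23684199-23692908, + strand) was 1.75-fold lower in MD43, with 0.04 and 0.84 log2 RPKM from 26.5 and 33.3 reads, and Hist1h2be differed by -0.59 ± 0.27. These were the 2 members past 1.5-fold in that direction. Hist1h2bk and Hist1h2ae differed by -0.16 ± 0.43 and 0.07 ± 0.38.

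The members of the same types past 2-fold had few WT reads. Hist2h2bb (chr3:96269752-96270132, + strand) had 19.7 reads (1.21 log2 RPKM) in MD43 and 3.46 reads (-0.82 log2 RPKM) in WT, a difference of 2.04 ± 0.59. All of its 75-base stretches are shared with another gene. It lies within Gm42743 on the same strand, which itself had 15.9 and 4 reads and a difference of 1.52. It also lies within Gm20628 on the opposite strand, with 23.9 and 5.29 reads and a difference of 1.70. The reads may belong to any of the 3. Hist1h2bm (chr13:21722044-21722567, + strand) differed by 1.25 ± 0.50, from 18.2 and 5.48 reads. Hist1h2ag (chr13:22042460-22042944, - strand) differed by 1.62 ± 0.72, from 10.49 and 2.45 reads, with 77.6% of its 75-base stretches shared. Set to 3 reads in WT, its difference was 1.33. Hist1h2ac differed by 0.65 ± 0.44 and Hist1h2bh by 0.47 ± 0.51.

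H3 was the type with the fewest reads. Hist1h3c (chr13:23744973-23745602, - strand) was the only H3 gene that reached 10 reads in both genotypes, with 0.54 log2 RPKM in MD43 and 0.45 in WT, a difference of 0.09 ± 0.35. Hist1h3e had -0.82 and -1.75 log2 RPKM, a difference of 0.93 ± 0.60 from 10.6 and 4 reads. Hist1h3f had 4.90 reads in MD43 and none in either WT library. With WT set to 3 reads, it was 1.17-fold higher in MD43. That value leaves out the counting error of the MD43 reads, and Hist1h3f fell under the minimum of 10 reads. In the other direction, Hist1h3i had 1.34 and 3.74 reads in MD43 and WT, a difference of -1.96 ± 1.03, and the H2B gene Hist1h2bb had 3.87 and 6.93 reads, a difference of -1.31 ± 0.65. Both fell under the minimum of 10 reads and were chosen for mention after their values were seen. They were the 2 members past 2-fold lower when no minimum was set, beside 11 past 2-fold higher. The 11 include Hist1h2ab and Hist1h3f, which had no read in WT. Their folds rest on the 0.9 reads set for an empty library. No share of all genes was taken without a minimum.

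Members were then grouped by their position in the genome. On chromosome 13 the Hist1 genes lie in groups, counted here in order along the chromosome. Among members with reads in both genotypes, 8 of 13 in the first group, 3 of 5 in the second and 18 of 25 in the third were higher in MD43, with medians of 0.24, 0.19 and 0.52. In the Hist2 cluster on chromosome 3, 4 of 6 were higher (median 0.02). Both genes of the Hist3 cluster on chromosome 11 were lower (median -0.32). H4 genes were higher in each of the Hist1 groups, in Hist2 and at Hist4h4.

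The annotated end of the message was compared next, since it bears on whether a message can carry a tail. A poly(A) signal was counted where AATAAA, on the transcript strand, stood in the last 50 bases of a transcript model. With such a signal, 7 members were higher in MD43 and 5 lower (median 0.06), and the summed level was 25.7 RPKM in MD43 and 27.6 RPKM in WT. Without it, 27 were higher and 13 lower (median 0.33), and the sum was 29.2 RPKM in MD43 and 21.0 RPKM in WT. Transcript models that run over 100 bases past the stem-loop without the signal had 8 higher and 2 lower members (median 0.63), and those that end within 100 bases of it had 11 higher and 5 lower (median 0.23). Models with neither a complete stem-loop nor the signal had 8 higher and 6 lower (median 0.06), a median as small as that of members with the signal. The ends are those of the annotation and not of the sequenced RNA, and the types are unevenly spread over them.

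**Figure D4:**
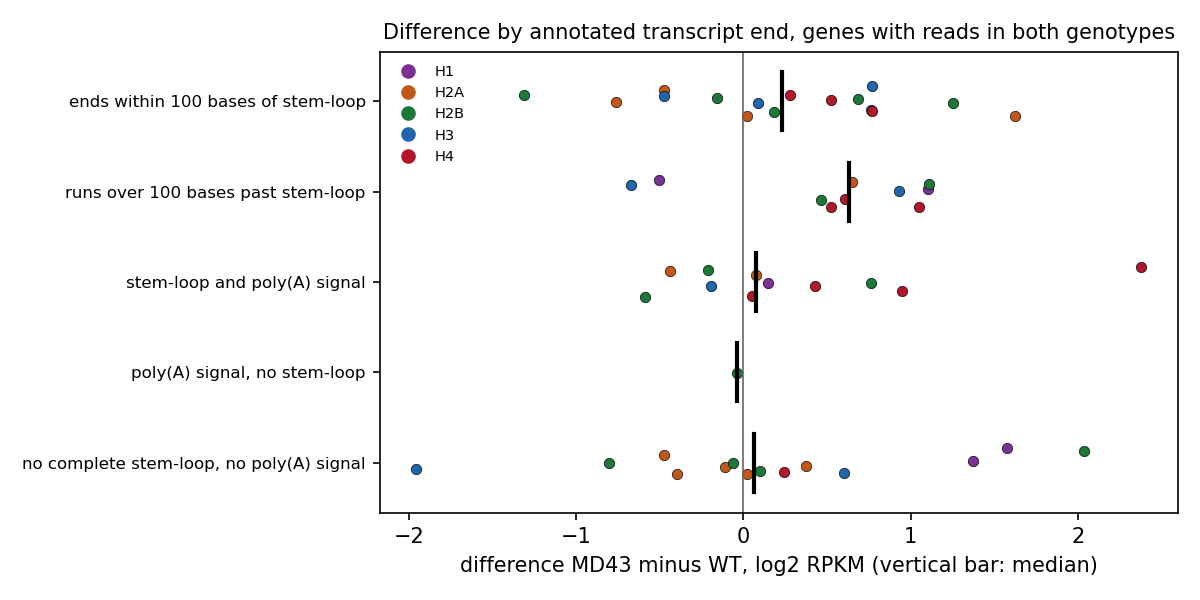
Difference between genotypes (MD43 minus WT, log2 RPKM) of the 52 histone genes with reads in both genotypes, in rows by the annotated end of the transcript and coloured by histone type, with a bar at each median. Every row but that of the single gene with a poly(A) signal and no stem-loop holds both higher and lower genes.

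Promoter sequences were taken from RefSeq (GRCm38.p6) as the 250 bases before the start of the gene, and 62 of 67 members had an entry. On both strands, CCAAT was found in 82.3% of histone promoters and in 33.8% of all 32851 promoters, TATAAA in 46.8% and 12.4%, and ATTTGCAT, the octamer, in 21.0% and 1.60%. CCAAT was in 6 of 6 H1, 18 of 18 H2A, 16 of 16 H2B and 8 of 10 H3 promoters, and in 3 of 12 H4 promoters. ATTTGCAT was in 7 H2A and 6 H2B promoters and in none of the other types. Head-to-head H2A and H2B genes share part of these windows, so their counts are not independent. A match describes the letters of the window and is no evidence of binding. The promoters of 3 members past 2-fold, from H1, H2B and H4, are printed with these motifs and their reverse complements in capitals. That of Hist1h1b holds CCAAT and TATAAA, that of Hist2h2bb CCAAT and ATTTGCAT, and that of Hist4h4 none of the 3.
Hist1h1b, chr13:21780626-21780875 (- strand): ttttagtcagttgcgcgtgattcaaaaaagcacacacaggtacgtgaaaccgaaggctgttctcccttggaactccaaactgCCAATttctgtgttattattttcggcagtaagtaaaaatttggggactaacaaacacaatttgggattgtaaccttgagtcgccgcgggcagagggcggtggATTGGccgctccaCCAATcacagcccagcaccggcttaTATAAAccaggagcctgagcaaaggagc
Hist2h2bb, chr3:96269450-96269699 (+ strand): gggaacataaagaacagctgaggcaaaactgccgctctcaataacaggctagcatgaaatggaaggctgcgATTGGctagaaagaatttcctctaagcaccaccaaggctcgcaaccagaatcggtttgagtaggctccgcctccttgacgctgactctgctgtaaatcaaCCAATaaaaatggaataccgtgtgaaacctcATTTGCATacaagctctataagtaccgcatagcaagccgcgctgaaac
Hist4h4, chr6:136804432-136804681 (- strand): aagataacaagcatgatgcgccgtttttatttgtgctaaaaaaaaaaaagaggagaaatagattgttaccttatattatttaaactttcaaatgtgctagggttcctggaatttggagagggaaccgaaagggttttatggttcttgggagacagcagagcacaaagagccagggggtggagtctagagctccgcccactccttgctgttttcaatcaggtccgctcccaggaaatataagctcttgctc

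Genes that act in the same pathway differed by less than 2-fold. So did most genes of the table, as 0.385% of all that passed in both genotypes were past 2-fold higher. In the 2 lists below, Zfp473 had the fewest reads, 194.6 in MD43 and 140 in WT. Most histone members had fewer, so these lists and the histone members were not compared at a like depth. The list of histone gene activators and 3′ end processing factors had 19 members with at least 10 reads, 13 higher and 6 lower in MD43 (median 0.10, range -0.08 to 0.25), and 0 past 2-fold. Slbp, which binds the stem-loop, differed by 0.10, and Npat, the activator of histone genes at the start of S phase, by 0.10. Lsm10 and Lsm11 differed by 0.06 and -0.01. In this list the highest levels were those of the cap-binding genes Ncbp2 and Ncbp1 and of Srrt, and Upf1, of RNA decay, had the largest difference, 0.25, followed by Cpsf2 at 0.23. DNA replication genes, which are used in the same phase of the cell cycle, had 36 of 42 members higher (median 0.11, range -0.09 to 0.49) and 0 past 2-fold. Of all genes that passed in a genotype, 51.2% were higher by any amount. Rrm2, of nucleotide synthesis, differed by 0.20, Pcna, the clamp of the polymerases, by -0.01 and Uhrf1 by 0.18. The largest differences were those of Ccne1, a cyclin of S phase entry (0.49), Mcm5 of the helicase (0.28) and Fen1 (0.26).

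Of the 11 replication-independent variants, 0 were past 2-fold, beside 0.385% past 2-fold higher of all genes that passed in both genotypes. The variants had 6 members higher and 5 lower (median 0.03). H2afz, the most abundant, differed by 0.28 (8.36 and 8.08 log2 RPKM), H1f0 by -0.17, H3f3b by -0.21 and H2afj by 0.22. Of the RNAs that lack a poly(A) tail by nature, 3 had at least 10 reads. Rmrp had 3.60 log2 RPKM in MD43 and 2.07 in WT, a difference of 1.53 ± 0.26, and Rpph1 had 3.10 and 1.33 log2 RPKM, a difference of 1.78 ± 0.31. Scarna13 differed by -0.03 ± 0.47. The part of RNA selection in the histone values was not tested.

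**Figure D5:**
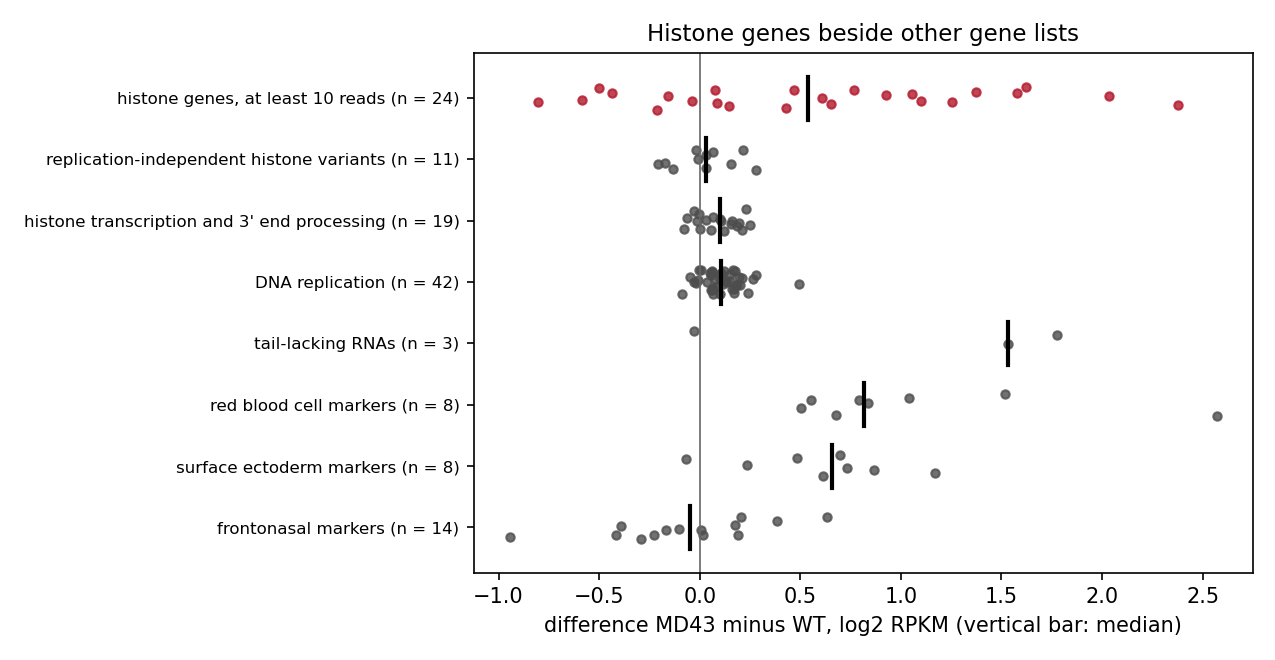
Difference between genotypes (MD43 minus WT, log2 RPKM) of genes that reached 10 reads in a genotype, in rows for the 24 histone genes and 7 other lists, with a bar at each median. The pathway and variant lists lie between -0.21 and 0.49, while all 8 red blood cell markers, 7 of 8 surface ectoderm markers and 2 of 3 tail-lacking RNAs were higher in MD43.

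Markers of some other cell types also stood higher in MD43. All 8 red blood cell markers were higher in MD43 (median 0.82), and their summed level was 6012 RPKM in MD43 and 3168 RPKM in WT. The embryonic globins Hbb-bh1 and Hbb-y differed by 1.04 and 0.84. Surface ectoderm markers were higher in 7 of 8 (median 0.66), with summed levels of 180.4 and 116.4 RPKM, and Krt18 and Cldn6 differed by 0.49 and 0.87. The frontonasal markers were all present and divided 7 to 7 (median -0.05), with Msx1 at 5.11 and 5.28 log2 RPKM. Macrophage markers were higher in 1 of 8 (median -0.30), endothelial markers in 2 of 8 (median -0.08), neural markers in 2 of 9 (median -0.23) and neuronal markers in 2 of 8 (median -0.21). The part of cell content in the histone values was not tested. Smchd1 itself had 3.30 log2 RPKM in MD43 and 3.31 in WT.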

How the data were processed

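RNA sequencing was analysed in 4 FNP libraries, 2 per genotype, with groups as labelled. Reads were trimmed by the authors (Trim Galore 0.4.4), who mapped them with HISAT2 2.0.5 to GRCm38 and quantified them in SeqMonk, leaving out the sex chromosomes. The deposited values are log2 RPKM, 1 merged column per genotype. The authors' columns of fold change, FDR and mean were not used.

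Each value was taken as the mean of 2 libraries' log2 RPKM, with 0.9 reads for an empty library. With GENCODE M21 exon lengths (33101 of 33708 rows matched), the product of both counts was recovered, and of products under 1000, 99.9% came out, to within 0.002, as 0.81, a whole number or a whole number multiplied by 0.9. The recovery was also run on data simulated with the same 0.9 reads and the same mean of 2 libraries. That run tests the arithmetic and not whether the deposited values have this form. Differences are MD43 minus WT, with no test, a minimum of 10 reads in a genotype and called changes past 2-fold. Values from 2 merged libraries measure no spread between embryos. A symbol in several rows was counted once. Python 3.11.15 with numpy 2.4.6 and pandas 2.3.3 was used.

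The members, gene lists and alternatives were chosen with earlier results of these data known. Named members were, in each type, the 4 of highest level and the 3 of largest difference with at least 10 reads, all past 2-fold, those absent in 1 genotype with at least 3 reads in the other, and testis members. Of each of the other lists the same rule took 3 and 3, of which some are printed. The alternatives were pseudocounts, centring, other read minimums, summed reads, leaving out genes with shared sequence or overlap, and a correction for length and GC content.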

Additional observations from a re-analysis of the deposited data

How the results depend on the processing

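No paired analysis was possible because both libraries of a genotype are merged into 1 value, and for the same reason no library could be left out. The median difference of the 24 members that reached 10 reads in a genotype was 0.54, and depended on the choice of members. It was -0.10 with at least 10 reads in both genotypes, -0.037 at 50 reads in a genotype, 0.074 where the geometric mean of both genotypes reached 10 reads, 0.21 with reads in both, 0.17 with a read in either, 0.31 without members of identical protein, 0.43 without members that share at least 50% of their sequence, 0.058 as summed reads, and 0.41 and 0.14 with pseudocounts of 0.1 and 1 RPKM. For H1 the median of 1.10 was 0.15 at both stricter minimums of reads, from 3 members and from Hist1h1c alone. It was 0.62 at the mean minimum, 0.40 as summed reads and 0.39 with 1 RPKM. For H2A the median of 0.36, from 4 members, became -0.18 with 10 reads in both genotypes, from 2 members. At 50 reads and without identical proteins it became -0.44, each time from Hist3h2a alone. The H2A value was -0.24 as summed reads and -0.042 with reads in both. It was 0.074 at the mean minimum and without shared sequence, 0.024 with a read in either and 0.083 with 1 RPKM. For H2B the median of -0.10 became 0.10 with a read in either or in both and 0.22 without identical proteins. For H4 the median of 0.77 was 0.37 with 1 RPKM, and no alternative turned its direction. However, 4 of its 5 members reached 10 reads in MD43 only, a filter that favours values higher in MD43. At both stricter minimums the H4 value was 0.61, from 1 member, Hist1h4i. The median of H3, from 2 members, was 0.51. It fell to 0.085 with 10 reads in both genotypes, at the mean minimum, with reads in both and without shared sequence, to 0.093 with a read in either and to 0.16 with 1 RPKM, and turned under none. No member was left for H3 at 50 reads, or for H3 and H4 without identical proteins. The count past 2-fold higher was 8 of 24, beside 1.63% of all genes, and 3 at the mean minimum, beside 0.691%. It was 6 of 19 without shared sequence, 6 without overlap on the same strand and 11 with no minimum of reads. The 11 include Hist1h2ab and Hist1h3f, which were absent in WT. The count past 2-fold lower was 0 of 24, beside 2.46% of all genes. It was 2 at 1.5-fold, beside 6.42%, and 2 with no minimum of reads. No share of all genes was taken without shared sequence, without overlap or with no minimum. Centring, at 0.0055 on the log2 scale, turned no median, nor did the correction for length and GC content, under which Hist2h2be alone of the 21 named members changed sign, to 0.016. The alternatives on mean reads, reads in both, shared sequence and overlap were chosen after seeing the data. Depth is a limit, since 43 of 67 members had under 10 reads in each genotype, and the causes of these shifts were not tested.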
